A study of Mus musculus with 11 samples.

Results

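The 9 genes of the hedgehog pathway described here were measured in muscle spindles and in the muscle next to them, and are the ligand *Dhh*, the receptors and surface binding proteins *Ptch1*, *Cdon*, *Boc* and *Hhip*, the signal transducer *Smo*, and the transcription factors *Gli1*, *Gli2* and *Gli3*. They were chosen by symbol, all 9 were found, and they are 9 of the 22384 genes in the count table. Spindles are the stretch receptors of skeletal muscle, and the study asked which genes set them apart from ordinary muscle. Bundles of spindles were dissected by hand from the deep masseter, a jaw muscle, of mice carrying *Piezo2* EGFP-IRES-Cre and a *Rosa26* tdTomato reporter, and extrafusal fibers next to them were taken as muscle. Both tissues therefore carried the same 2 alleles, and no treatment is stated. Each sample is polyadenylated RNA of 1 mouse, with spindle and muscle from mice 9, 10, 12, 13 and 16 and muscle alone from mouse 11. The age of these animals was not given in the sources used here. In the spindle the reporter marks intrafusal fibers and capsule cells, and a dissected bundle is a mix of cell types.

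Hedgehog ligands are secreted proteins that bind PTCH1 on a receiving cell, which frees SMO, a membrane protein that works in the primary cilium, and turns GLI2 and GLI3 into activators or removes their repressor forms. *Gli1*, *Ptch1* and *Hhip* are themselves transcribed in response to the signal, so their RNA levels are commonly used as readouts of it. In peripheral nerve, *Dhh* is made by Schwann cells and is needed to form the perineurium, the cell sheath that continues into the spindle capsule. CDON and BOC are surface proteins that bind ligand together with PTCH1, while HHIP binds ligand and keeps it from the receptor.

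Of the 9 genes 7 were higher in spindle, none was lower and 2 were not called. To be called, a gene needed a mean of 5 or more normalized counts, an edgeR adjusted p of 0.05 or less and a log2 fold change of 1 or more in size. A normalized count is a read count divided by the relative effective size of its library. Across all 22384 genes, 11.0% were called higher and 1.80% lower by the same rule. The groups did not overlap for the same 7 genes, with every spindle library above every muscle library, which held for 9.15% of all genes. None of the 9 had every spindle library below every muscle library, which held for 8.65% of all genes. With no minimum fold change, 8 of the 9 genes were higher and none lower, against 15.8% and 15.0% of all genes. Without spindle 16 and muscle 12, 8 were called higher, beside 13.2% of all genes. Without spindle 10, 12 and 13 there were also 8, beside 7.04% of all genes. With the median of all genes set to 0 there were 4, beside 8.0% of all genes. Since their groups did not overlap, the 7 were necessarily higher in spindle than in muscle in 5 of 5 mice, which adds no further support. In bulk samples such as these, fewer cells of a type and less RNA per cell cannot be told apart.

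**Figure D1:**
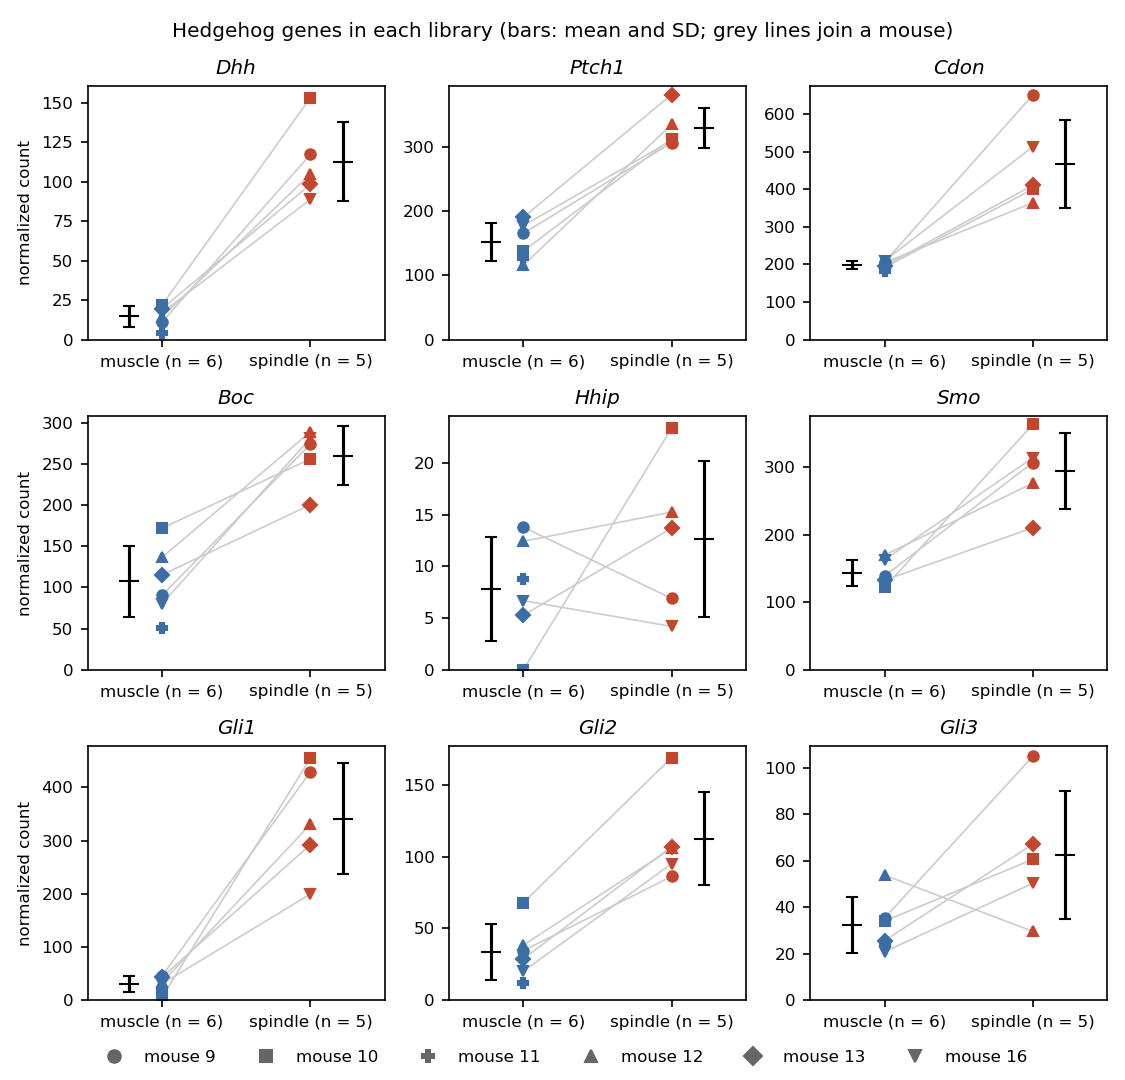
Normalized counts of the 9 hedgehog genes in each of the 5 spindle and 6 muscle libraries. In 7 of the 9 panels every spindle library lies above every muscle library, and in the panels of *Gli3* and *Hhip* the groups overlap.

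The libraries held 8354260 to 23430654 reads, and the 9 genes were covered by between 63 and 2277 reads over the 5 spindle libraries and between 55 and 1304 over the 6 muscle libraries. All 6 intrafusal fiber markers were higher in spindle, with a summed level of 746.3 to 1115 CPM (reads scaled to a common library size) against 2.42 to 7.82 in muscle. Of 6 fast fiber markers 4 were lower in spindle, 1 was not called, and *Myh4*, a fast myosin, was higher by 3.48 (SE 0.46; edgeR adjusted p = 0.000281), which goes against the label of that list. Spindle 16 stood apart from the other spindles on the first principal component (48.7% of the variance), at 2.3 against 95.0 to 105.3, and muscle 12 stood at -22.9 against -80.7 to -72.9 in the other muscle. Spindle 10, 12 and 13 held the most reads of odorant receptor genes, with a summed level of 170.1 to 227.9 CPM against 17.2 and 144.5 in the other spindles and 9.22 to 63.3 in muscle. The results are given with all libraries, and 1576 of all genes were called higher without spindle 10, 12 and 13, in place of 2470. That setting leaves only spindle 9 and 16. Spindle 9 also had more odorant receptor CPM than any muscle library, and spindle 16 is the one apart on the first component. Calls that ended there therefore do not separate these reads from the smaller number of libraries.

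*Dhh* encodes desert hedgehog, the ligand of the hedgehog family made in peripheral nerve and gonad. It lies on chr15:98891152-98898540 (GRCm38, minus strand). Its normalized count was 117.2 in spindle 9, 153.1 in spindle 10, 104.9 in spindle 12, 98.3 in spindle 13 and 88.8 in spindle 16. In the 6 muscle libraries it ranged from 3.99 (muscle 11) over a median of 15.8 to 21.98 (muscle 10). The lowest spindle library stood above the highest muscle library, and the spindles varied less for their level than the muscle samples did, with a coefficient of variation of 22.2% against 44.0%. The means were 112.5 ± 24.97 (SD, n = 5) in spindle and 14.7 ± 6.47 (SD, n = 6) in muscle, a log2 fold change of 2.97 (SE 0.29; edgeR adjusted p = 2.99e-07). As a ratio this is 7.81-fold, and 1 standard error on either side spans 6.37 to 9.58. Within mice the log2 difference was 3.18 (mouse 9), 2.70 (10), 2.70 (12), 2.22 (13) and 2.26 (16).

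Exons of other genes cover 25.2% of the *Dhh* exon length, among them *Rhebl1*. Reads in such an overlap may not be assignable to 1 gene, and how they were counted is not given in the sources used here. *Rhebl1*, a relative of the RHEB GTPase, had 57.6 ± 21.95 normalized counts in spindle (n = 5) and 47.9 ± 13.6 in muscle (n = 6), a log2 fold change of 0.27 (SE 0.28; edgeR adjusted p = 0.463), or -0.027 with the median of all genes set to 0. Of the other ligands *Ihh*, known from cartilage, had 21 reads in all spindle libraries together and 21 in all muscle libraries, with a log2 fold change of 0.43 (SE 0.77) and no call, and of -0.18 without spindle 10, 12 and 13. *Shh* was not analysed here. *Dhh* was thus the 1 ligand called of the 2 measured.

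The sequence before the start of 3 called genes, the ligand, the transducer and an upstream transcription factor, is shown for comparison with the GLI binding consensus GACCACCCA (TGGGTGGTC on the other strand). The capitals mark a stretch with the fewest mismatches to it on either strand, and other stretches of a window can have as few. The sequences are from RefSeq (GRCm38.p6), are written 5′ to 3′ on the strand of the gene, and end at the base before the transcript start that RefSeq gives. They cover chr15:98898541-98898790 for *Dhh*, chr1:119053620-119053869 for *Gli2*, both on the minus strand, and chr6:29735247-29735496 on the plus strand for *Smo*.
Dhh: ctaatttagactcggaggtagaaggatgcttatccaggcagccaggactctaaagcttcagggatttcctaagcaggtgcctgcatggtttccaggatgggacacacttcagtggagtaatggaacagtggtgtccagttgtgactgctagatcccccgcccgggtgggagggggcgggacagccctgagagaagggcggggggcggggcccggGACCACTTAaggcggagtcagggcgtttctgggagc
Smo: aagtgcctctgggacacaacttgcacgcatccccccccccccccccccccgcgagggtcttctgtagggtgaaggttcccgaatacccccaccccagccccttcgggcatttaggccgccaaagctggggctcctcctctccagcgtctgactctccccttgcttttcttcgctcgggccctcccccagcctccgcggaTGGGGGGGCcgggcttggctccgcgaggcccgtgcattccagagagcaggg
Gli2: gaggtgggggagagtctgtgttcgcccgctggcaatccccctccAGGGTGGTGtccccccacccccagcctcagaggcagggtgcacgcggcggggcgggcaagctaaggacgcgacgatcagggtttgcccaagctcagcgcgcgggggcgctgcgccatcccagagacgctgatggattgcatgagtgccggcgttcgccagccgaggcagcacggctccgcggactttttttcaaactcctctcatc
Of the 9 genes 7 had such a window, and *Gli1* and *Boc* had none. The windows of *Ptch1*, *Cdon* and *Gli3* lie before a transcript start inside the annotated gene, not before its outermost start, and are not shown. None of the 7 windows held the consensus exactly or with 1 mismatch, which 0.225% and 5.79% of 32851 windows of the same length did. With 2 mismatches, which 51.8% of all windows reached, there was a match in *Dhh*, *Gli2*, *Smo* and *Hhip*, and the closest letters in *Ptch1*, *Cdon* and *Gli3* had 3. The match marked in *Dhh* began 36 bases before the start. These letters describe a window and do not mark a site.

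*Ptch1* encodes the ligand receptor, which holds SMO back when no ligand is bound, and lies on chr13:63508328-63573598 (minus strand). Its normalized count was 306.7 in spindle 9, 312.8 in spindle 10, 335.4 in spindle 12, 382.0 in spindle 13 and 310.4 in spindle 16, against 115.9 (muscle 12) to 190.6 (muscle 13) with a median of 151.7 in muscle. The groups were separate and the spindles were close to each other, with the smallest coefficient of variation among the 9 genes in spindle, 9.54%. The means were 329.5 ± 31.4 (n = 5) and 152.4 ± 29.9 (n = 6), a log2 fold change of 1.11 (SE 0.15; edgeR adjusted p = 1.11e-05), or 2.15-fold. The call ended where the median of all genes was set to 0 (0.81), since that median was 0.29.

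*Cdon* and *Boc* encode the related immunoglobulin-type co-receptors. *Cdon* lies on chr9:35421128-35507652 (plus strand) and *Boc* on chr16:44485049-44558897 (minus strand). *Cdon* reached 651.4 in spindle 9, 400.6 in spindle 10, 364.1 in spindle 12, 410.6 in spindle 13 and 513.2 in spindle 16, and the 6 muscle libraries lay between 182.8 and 209.5 with a median of 200.4. Muscle was nearly constant for this gene, and spindle 9 and 16 stood above the other spindles. Its log2 fold change was 1.23 (SE 0.14; edgeR adjusted p = 2.25e-06), from 468.0 ± 116.5 (n = 5) against 198.5 ± 10.2 (n = 6). With the median of all genes set to 0 it was 0.94 and not called.

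*Boc* had normalized counts of 274.0, 255.9, 288.8, 200.3 and 281.1 in spindle 9, 10, 12, 13 and 16. In muscle it ran from 50.3 (muscle 11) over a median of 102.9 to 171.8 (muscle 10), so that the groups did not overlap although muscle 10 came close to spindle 13. The log2 fold change was 1.30 (SE 0.23; edgeR adjusted p = 0.000254), from 260.0 ± 35.5 (n = 5) against 107.5 ± 43.3 (n = 6). *Cdon* and *Boc* did not differ detectably in their change, as the within-library log2 ratio of *Cdon* to *Boc* was 0.82 ± 0.35 in spindle and 0.97 ± 0.60 in muscle, a difference of -0.15 (exact permutation test, two-sided, p = 0.632, adjusted p = 0.675 over 9 pairs).

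*Hhip*, the decoy that binds ligand at the cell surface, was near the limit of detection in both tissues. It lies on chr8:79965851-80058006 (minus strand). It had 6.89, 23.3, 15.3, 13.7 and 4.195 normalized counts in spindle 9, 10, 12, 13 and 16, and in muscle 0 (muscle 10) to 13.8 (muscle 9) with a median of 7.74. The groups overlapped, and 3 of 5 mice had more in spindle. The log2 fold change was 0.65 (SE 0.57; edgeR adjusted p = 0.377) on 63 and 55 reads, and a difference was not detectable at this depth. Without spindle 10, 12 and 13 its sign turned (-0.60).

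*Smo* encodes the transducer that PTCH1 restrains, and lies on chr6:29735503-29761365 (plus strand). Its normalized count was 306.7 in spindle 9, 363.2 in spindle 10, 276.2 in spindle 12, 210.3 in spindle 13 and 313.9 in spindle 16, and 121.9 (muscle 10) to 169.7 (muscle 12) in muscle, with a median of 135.7. The groups were separate, with spindle 13 the lowest of its group. The means were 294.1 ± 56.3 (n = 5) and 142.8 ± 19.1 (n = 6), a log2 fold change of 1.04 (SE 0.15; edgeR adjusted p = 3.13e-05). Its adjusted p stayed under 0.05 in all 20 settings tried, but the fold change lay at the minimum and the call ended with the mouse as a block (0.99), without spindle 10 (0.95), without muscle 10 (0.98) and with the median of all genes set to 0 (0.75). The change of *Ptch1* relative to *Smo* was 0.10 (exact permutation test, p = 0.675, adjusted p = 0.675).

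*Gli1* encodes a transcriptional activator whose own gene is a target of the pathway, and it showed the largest fold change of the 9. It lies on chr10:127329882-127341974 (minus strand). Its normalized count was 429.1 in spindle 9, 454.7 in spindle 10, 330.9 in spindle 12, 292.4 in spindle 13 and 199.3 in spindle 16, against 5.995 (muscle 10) to 45.7 (muscle 9) in muscle, with a median of 31.8. Every spindle library exceeded every muscle library more than 4 times over, and spindle 16 was the lowest spindle. The means were 341.3 ± 104.0 (n = 5) and 29.7 ± 14.8 (n = 6), a log2 fold change of 3.45 (SE 0.31; edgeR adjusted p = 6.58e-07), or 10.9-fold with 8.82 to 13.5 at 1 standard error on either side. Within mice the log2 difference was 3.18 (mouse 9), 5.85 (10), 3.25 (12), 2.71 (13) and 2.64 (16). The value of mouse 10 rests on 3 reads in its muscle library. Exons of other genes, among them *Arhgap9*, cover 6.55% of the *Gli1* exon length, and *Arhgap9* was itself higher, at 19.9 ± 10.0 against 5.93 ± 4.07 normalized counts, a call that ended without spindle 13 (1.29) and without spindle 10, 12 and 13 (1.42).

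*Gli2*, which encodes the main activator upstream of *Gli1*, lies on chr1:118834132-119053619 (minus strand). It had 86.2, 169.0, 105.8, 107.0 and 95.1 normalized counts in spindle 9, 10, 12, 13 and 16, against 12.0 (muscle 11) to 67.9 (muscle 10) in muscle, with a median of 31.5. The groups did not overlap, and in both tissues mouse 10 had the most. The means were 112.6 ± 32.7 (n = 5) and 33.6 ± 19.4 (n = 6), a log2 fold change of 1.83 (SE 0.31; edgeR adjusted p = 0.000211).

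*Gli3*, which encodes the factor known mainly for its repressor form, lies on chr13:15463235-15730026 (plus strand). It had 105.1, 60.7, 29.6, 67.2 and 50.3 normalized counts in spindle 9, 10, 12, 13 and 16, and 20.8 (muscle 16) to 53.8 (muscle 12) in muscle, with a median of 29.8. The groups overlapped, as mouse 12 had less in spindle than in muscle while the other 4 mice had more. The log2 fold change was 0.94 (SE 0.31) with an edgeR adjusted p of 0.0218, so that it missed the call by its size alone. That p rose above 0.05 without muscle 11 (0.0539), muscle 13 (0.0532), muscle 16 (0.0584) or spindle 9 (0.0636) and with the median of all genes set to 0 (0.0880), each by edgeR. It reached the minimum with DESeq2 (1.02), with the filter of edgeR on low counts (1.02), with library size alone (1.23), and without muscle 12 (1.14), spindle 12 (1.12) or spindle 16 (1.01). It also did so without spindle 16 and muscle 12 together (1.22) and without spindle 10, 12 and 13 (1.24).

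**Figure D2:**
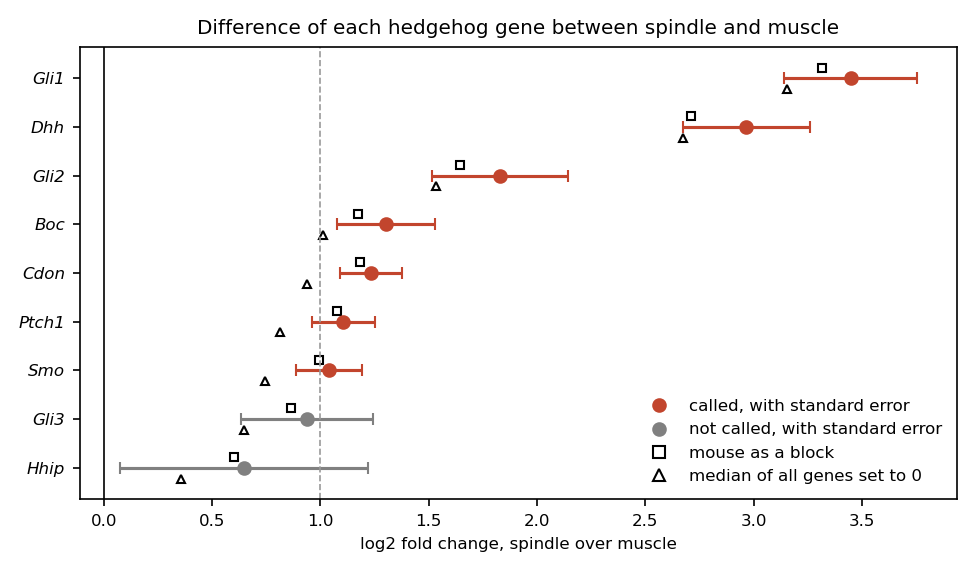
Log2 fold change of spindle over muscle for the 9 genes, with standard errors as bars. Squares give the value with the mouse as a block and triangles the value with the median of all genes set to 0, and the dashed line is the minimum of 1. *Gli1* (3.45) and *Dhh* (2.97) lie furthest from it, and *Smo* (1.04) lies at the line.

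The GLI genes and the readouts did not change by the same amount. Of 9 pairs compared by the spindle minus muscle difference in their within-library log2 ratio, 4 passed, all of them with *Gli1* above its partner. *Gli1* rose over *Ptch1* by 2.47 and over *Hhip* by 2.92 (each exact permutation test, two-sided, p = 0.00216, adjusted p = 0.00649, the smallest p that the 462 splits allow). It rose over *Gli3* by 2.72 (exact p = 0.00216, adjusted p = 0.00649) and over *Gli2* by 1.76 (exact p = 0.00433, adjusted p = 0.00974). In these 4 pairs the ratios of the groups did not overlap, so that 5 of 5 mice necessarily had the higher ratio in spindle. Within mice the exact sign flip test has 32 arrangements and cannot go below p = 0.0625, the value that all 4 pairs took. *Gli2* against *Gli3* differed by 0.96 (exact permutation p = 0.0584, adjusted p = 0.105), *Ptch1* against *Hhip* by 0.45 (exact permutation p = 0.481, adjusted p = 0.618) and *Dhh* against *Gli1* by -0.70 (exact permutation p = 0.262, adjusted p = 0.393). Without muscle 10, the library with 3 *Gli1* reads, *Gli1* rose over *Gli2* by 1.17 (exact permutation p = 0.00794) and *Dhh* against *Gli1* differed by -0.22 (exact permutation p = 0.405).

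Per kilobase of exon the order of the levels was not the same in the tissues. In spindle *Gli1* had 68.3 ± 20.8 normalized counts per kb, *Cdon* 60.7 ± 15.1, *Boc* 58.4 ± 7.98 and *Smo* 52.3 ± 10.0, and these 4 neighbours lay within their spread. *Dhh* (25.6 ± 5.68) and *Ptch1* (23.2 ± 2.22) came next and lay within their spread, followed by *Gli2* (16.4 ± 4.75), *Gli3* (6.53 ± 2.89) and *Hhip* (1.40 ± 0.83). The highest *Gli2* library reached into the range of *Ptch1*, while *Gli3* stayed below *Gli2* and *Hhip* below *Gli3* in every spindle library. In muscle *Cdon* (25.7 ± 1.32), *Smo* (25.4 ± 3.39) and *Boc* (24.1 ± 9.72) led, followed by *Ptch1* (10.7 ± 2.11). *Gli1* was at 5.95 ± 2.97 per kb there, within the spread of *Gli2* (4.89 ± 2.82), *Gli3* (3.38 ± 1.24) and *Dhh* (3.35 ± 1.47), while *Hhip* had the lowest mean (0.86 ± 0.55). In muscle the ranges of *Boc* and *Ptch1*, of *Ptch1* and *Gli1*, and of *Dhh* and *Hhip* overlapped. Lengths are those of all annotated exons of a gene, and which transcripts these tissues use was not tested.

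**Figure D3:**
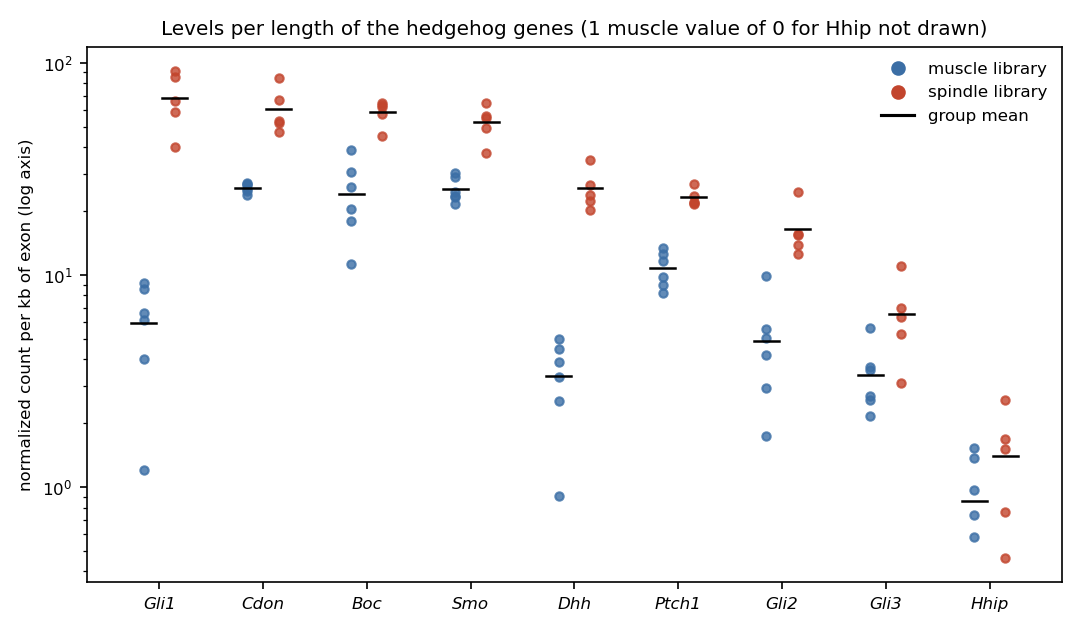
Normalized count per kb of exon of the 9 genes in each library, on a log axis, with group means as lines. *Gli1* has the highest mean in spindle (68.3) and a mean of 5.95 in muscle, where *Cdon*, *Smo* and *Boc* lie at 24.1 to 25.7.

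The other genes of the pathway were called less uniformly. Among all genes 11.0% were called higher, the share to set beside each count of this kind. Of 55 measured genes of ligand release, reception, transduction, response and the primary cilium other than the 9, 13 were higher (23.6%), 1 was lower and 41 were not called, with a median log2 fold change of 0.38 beside 0.29 over all genes. With the mouse as a block 7 of the 55 were higher (12.7%), beside 9.86% of all genes, and without spindle 10, 12 and 13 there were 8 (14.5%), beside 7.04% of all genes. Among 6 genes of ligand release, 3 were higher. *Scube1*, of a family of secreted proteins that includes the ligand release factor SCUBE2, had 47.3 to 251.2 normalized counts in spindle and 4.79 to 21.98 in muscle, a log2 fold change of 3.88 (SE 0.40; edgeR adjusted p = 2.06e-06). *Hhat*, the acyltransferase that adds palmitate to the ligand, rose by 1.67 (SE 0.43; edgeR adjusted p = 0.00547), a call that ended without spindle 10, 12 and 13 (1.47). *Disp2*, a relative of the ligand release protein DISP1, rose by 2.73 (SE 0.87) on 50 reads in spindle and 9 in muscle. Its mean of 5.001 normalized counts lay at the minimum of 5. The call ended with the mouse as a block (2.39) and with the median of all genes set to 0 (2.44). It also ended without any 1 of spindle 10 (2.43), 12 (2.41), 13 (2.72) or 16 (2.95). The edgeR adjusted p stayed under 0.05 without spindle 13 (0.0340) or 16 (0.00955) and with that median (0.0291). There the mean count ended the call. Without spindle 10, 12 and 13 the log2 fold change of *Disp2* was 0.52.

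Of 7 receptors and surface binding proteins, against a share of 11.0% of all genes, 5 were higher. Beside *Ptch1*, *Cdon* and *Boc* these were *Gpc3*, a glypican, at 2.33 (SE 0.37; edgeR adjusted p = 0.000653), and *Lrp2*, an endocytic receptor. *Lrp2* was at 3.597 (SE 0.81; edgeR adjusted p = 0.00252), with 12 reads in all muscle libraries and with 0.70 normalized counts in its lowest spindle library. Its call ended with limma-voom (3.10) and without spindle 10, 12 and 13 (2.84). *Gas1*, a co-receptor anchored in the membrane, was at 829.9 ± 121.2 against 467.7 ± 130.2 normalized counts and missed the minimum fold change (0.83, SE 0.17; edgeR adjusted p = 0.000927), although its groups did not overlap. Without spindle 10, 12 and 13 (1.02) and with library size alone (1.14) it was called.

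Of 22 genes of signal transduction 4 were higher (18.2%, beside 11.0% of all genes) and none lower, with a median of -0.01. These were *Smo*, *Arrb1*, a beta-arrestin (1.31, SE 0.19), *Gpr161*, a ciliary receptor that restrains the pathway (1.07, SE 0.26), and *Kif7*, a ciliary kinesin (1.61, SE 0.51). *Smo*, *Gpr161* (0.99) and *Kif7* (1.38) lost their call with the mouse as a block, which left *Arrb1*, and 2 were called without spindle 10. *Gpr161* was likewise not called without muscle 9 (0.97), muscle 11 (0.99), spindle 9 (0.95) or spindle 10 (0.995), and *Kif7* not without spindle 12 (1.37) or without spindle 10, 12 and 13 (0.40). Exons of other genes cover 20.3% of the *Kif7* exon length. Of 15 genes of the primary cilium, *B9d1*, of the ciliary transition zone, was higher (1.22, SE 0.33), *Tulp3*, which carries receptors into the cilium, was lower (-1.18, SE 0.18; edgeR adjusted p = 6.79e-05), and 13 were not called. With library size alone *Tulp3* was at -0.86 and not called, and without spindle 10, 12 and 13 *B9d1* was not called (1.21).

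*Gli1*, *Ptch1* and *Hhip* of the 12 target genes measured also belong to the 9 genes. Of the 12, 6 were higher in spindle, beside 11.0% of all genes, none was lower and 6 were not called, with a median of 1.11. These 6 were *Gli1* and *Ptch1*, the apoptosis inhibitor *Bcl2* (1.94, SE 0.23; edgeR adjusted p = 2.35e-06), the forkhead factor *Foxf1* (1.37, SE 0.44), the ligand *Bmp4* (1.02, SE 0.19) and the secreted WNT antagonist *Sfrp1* (1.12, SE 0.26). *Foxf1* (1.27), *Bmp4* (0.92) and *Sfrp1* (0.99) lost their call with the mouse as a block, and also without muscle 11 (1.29, 0.92 and 0.98). The block left 3 targets, *Gli1*, *Ptch1* and *Bcl2*, beside 9.86% of all genes. *Foxf1* was also not called without spindle 12 (1.12) or without spindle 10, 12 and 13 (0.47), and *Sfrp1* not without the latter (1.02). *Bmp4* lay at the minimum and was not called without muscle 9 (0.95), muscle 10 (0.98) or spindle 16 (0.86), nor without spindle 16 and muscle 12 (0.90). The targets not called were *Hhip*, *Foxl1* (3.45, SE 1.25, on 19 and 2 reads), *Foxc2* (1.59, SE 0.78), *Mycn* (0.39, SE 0.43), *Ccnd2* (0.89, SE 0.18) and *Ccnd1* (-0.65, SE 0.17). *Ccnd1* and *Ccnd2*, which encode D-type cyclins, both passed the test on adjusted p but missed the minimum fold change, in opposite directions. *Ccnd2* was called without spindle 10, 12 and 13 (1.13) and with library size alone (1.204), and *Foxc2* without spindle 9 (1.85). *Foxf2* was not analysed here. Many of these genes are also controlled by other pathways.

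**Figure D4:**
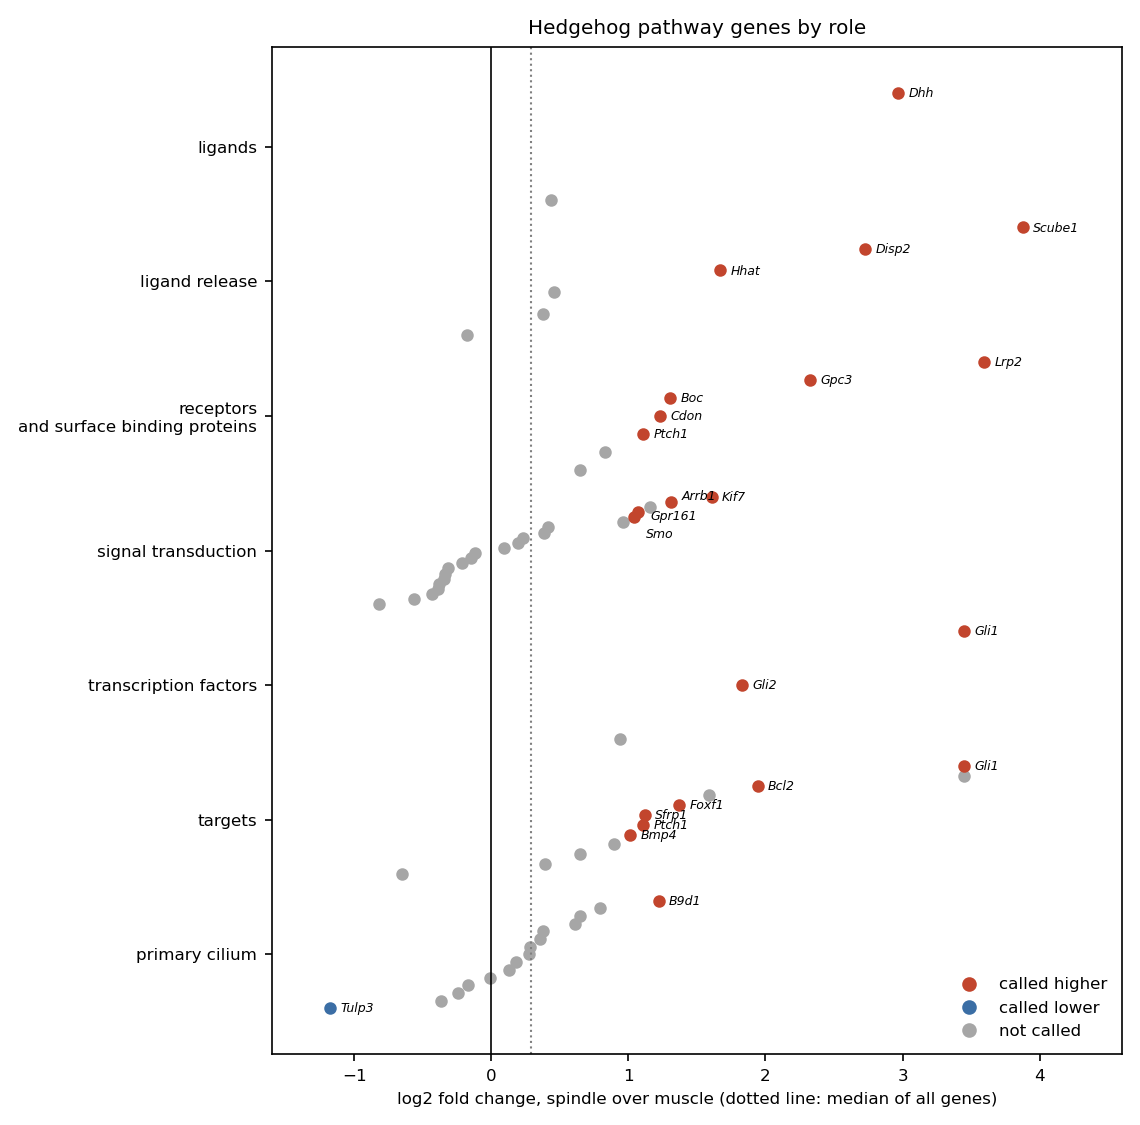
Log2 fold change of the 64 measured pathway genes grouped by role, with *Gli1*, *Ptch1* and *Hhip* drawn under 2 roles, and the dotted line at the median of all genes (0.29). Called genes are coloured and named, and 5 of 7 receptors and surface binding proteins lie above 1, against 4 called of 22 genes of signal transduction. Of all genes 11.0% were called higher.

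Markers of nerve-associated cells were, like the 7 genes, mostly higher in spindle, and so were those of macrophages and intrafusal fibers. All 9 perineurial markers were higher in spindle, with a summed level of 264.8 to 437.2 CPM against 8.29 to 17.9 in muscle. Of 12 myelinating Schwann cell markers 11 were higher, with 717.7 to 1349 CPM against 108.0 to 366.3, and of 6 markers of non-myelinating Schwann cells 4, with 39.3 to 56.5 CPM against 11.9 to 21.3. Endoneurial fibroblast markers were higher in 5 of 6 (192.0 to 468.5 CPM against 30.8 to 58.3), and muscle fibroblast markers in 4 of 10 (3319 to 5214 CPM against 1497 to 3077). All 7 macrophage markers and 1 of 6 mural cell markers were higher, while none of 8 endothelial markers was. Of 4 axon markers measured 3 were higher, and of 3 satellite cell markers 1. The perineurial markers *Mpzl2*, *Lypd2*, *Msln* and *Lgals7* were at 0 in some muscle libraries and none was at 0 in all of them, and no Schwann cell or fibroblast marker was at 0 in any library. The part of these cells in the levels of the hedgehog genes was not tested. The lists were chosen with earlier results of these data known, so their counts are no independent support. The paper named the products of *Slc2a1*, a perineurial marker here, and *Myl2*, an intrafusal one, as spindle markers with the help of these data. Among all genes 11.0% were called higher.

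In spindle *Dhh* and *Gli1* had the same order over libraries, from spindle 10 over 9, 12 and 13 down to 16. In muscle their orders were not the same. Spindle 10 had the most *Dhh* (153.1) and the most RNA of myelinating Schwann cell markers (1349 CPM) of the spindles, and muscle 10 had the most of both among the muscle libraries (21.98 normalized counts and 366.3 CPM). Muscle 11 had the least of both (3.99 and 108.0 CPM). Other libraries did not follow this order. Muscle 12 had 278.8 CPM of these markers and 14.5 normalized counts of *Dhh*, while muscle 13 had 145.7 CPM and 19.6. Among the spindles, spindle 12 was lowest for the markers (717.7 CPM) and spindle 16 for *Dhh* (88.8). For the non-myelinating Schwann cell markers muscle 12 was the highest muscle library (21.3 CPM) and muscle 10 had 14.9 CPM. For *Gli1* muscle 10 was the lowest of all libraries (5.995) although it had the most *Dhh*, *Boc* and *Gli2* of the muscle libraries, and its perineurial markers (11.3 CPM) were within the range of muscle. Spindle 16, which stood apart on the first component and had 17.2 CPM of odorant receptor reads, had 199.3 normalized counts of *Gli1*, 88.8 of *Dhh* and 264.9 CPM of perineurial markers.

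**Figure D5:**
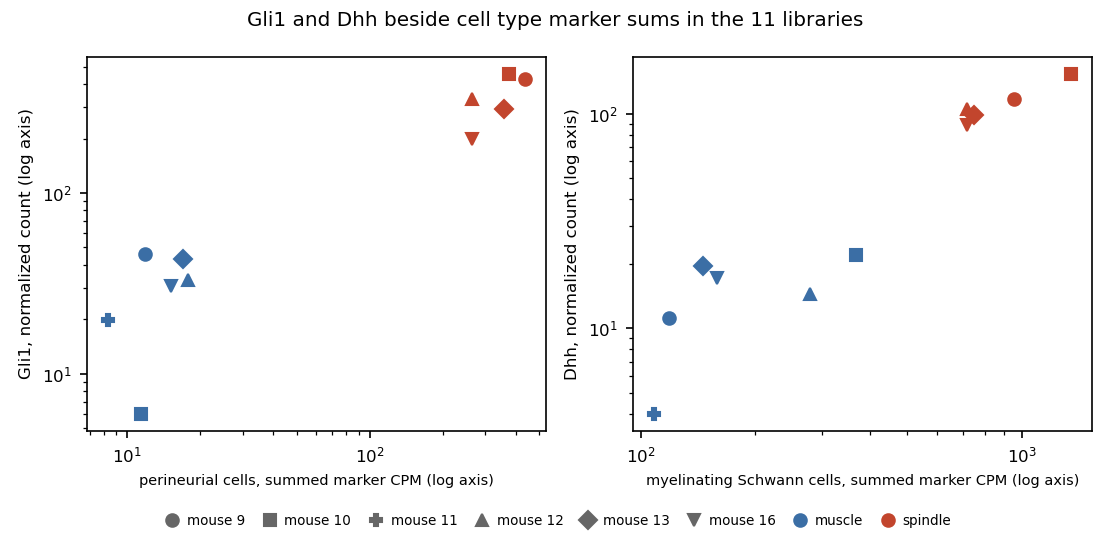
*Gli1* against summed perineurial markers (left) and *Dhh* against summed myelinating Schwann cell markers (right) in 11 libraries, both axes on a log scale, with 1 symbol per mouse. Spindle and muscle form separate groups on every axis, and muscle 10 is the lowest library for *Gli1* (5.995) and the highest muscle library for *Dhh* (21.98).

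The genes whose log2 CPM followed *Gli1* most closely over the 11 libraries, among 10664 genes averaging 50 or more normalized counts, were *Dtx4* (Pearson r 0.987), *Ralgps2* (0.982), *Nectin3* (0.981), *Efnb3* (0.979) and *Rdh10* (0.976). For *Dhh* they were *Chrd* (0.988), *Mgat3* (0.985), *Clip3* (0.985), *Nfasc* (0.984) and *Col23a1* (0.983). All 10 were called higher in spindle (*Chrd* at 0.93 and *Nectin3* at 0.90 not with the median of all genes set to 0). These correlations share the difference between the tissues, so genes chosen by them tend to be called. Over the spindle libraries alone r with *Gli1* ran from 0.52 (*Rdh10*) to 0.90 (*Ralgps2*). With *Dhh* it ran from 0.80 (*Col23a1*) to 0.965 (*Nfasc*). The libraries used to choose these genes include the same 5 spindles, so high values there were favoured by the choice. The log2 fold changes of the 10 genes ran from 1.19 (*Nectin3*) to 4.11 (*Efnb3*). Pearson r does not depend on the size of a change, so a like pattern need not go with a like size.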

How the data were processed

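Polyadenylated RNA of 5 spindle and 6 muscle samples was measured by single-end sequencing. The authors aligned them with STAR 2.4.2a to GRCm38, used unique alignments, and deposited raw read counts per gene for genes with at least 6 reads in some library, with no pooling of samples. They omitted 1 further spindle sample for few uniquely aligned reads. The table also holds 22 per-sample columns of normalized values and the authors' comparison by DESeq2 1.16.1 (mean, fold change, p-value, call and direction), none of which was used.

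Counts of all 22384 genes were tested here with the quasi-likelihood method of edgeR 4.0.16 in R 4.3.3 (TMM scaling, robust, no term for the mouse), with Benjamini-Hochberg adjustment over all genes and the study's thresholds. Ratios of 2 genes were compared on log2 CPM with a prior count of 2 by an exact permutation test over the libraries. The edgeR test was checked on simulated counts, and the permutation test only on values with a known answer. Alternatives were DESeq2 1.42.0, limma-voom (limma 3.58.1), library size alone, the median of all genes set to 0, the filter of edgeR on low counts, no minimum fold change, a prior count of 0.5, the mouse as a block, and leaving out libraries.

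Each replicate is a mouse, and same-numbered samples came from the same mouse. Over 12557 genes their deviations from the group means correlated at 0.08 (mouse 9), 0.31 (10), 0.17 (12), 0.26 (13) and 0.29 (16). No 2 libraries were copies, as the chi-square per gene of their counts was at least 21.6. Positions and exon lengths were taken by symbol from GENCODE vM21, promoter sequences from RefSeq (GRCm38.p6). The authors' annotation is a later release, and whether counting used strand is not given in the sources used here.

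Named genes are the 9 genes, the called genes of the pathway lists, all ligands and targets, and for *Gli1* and *Dhh* the 5 genes most correlated with each. *Gas1*, *Rhebl1*, *Arhgap9*, *Myh4* and the odorant receptor genes were named after their values were seen. Of the pathway lists, 1 gene is not reported here and was left out of their counts. The genes and lists were chosen with earlier results of these data known. Python 3.11.15 and matplotlib 3.10.9 made the plots.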

Additional observations from a re-analysis of the deposited data

Results flagged for a closer look

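In spindle 10 the normalized count of *Gli2* was 169.0, and the nearest of the other 4 spindle libraries had 107.0. The gap is 0.749 of the range of the group, more than Dixon's test at the 95% level allows for 5 libraries. It was the only such value among 18 groups of values tested, where chance gives about 1 in 20. Without spindle 10 the log2 fold change of *Gli2* was 1.63 and the gene was still called (edgeR adjusted p = 0.000886).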

How the results depend on the processing

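*Dhh*, *Gli1*, *Gli2* and *Boc* kept their call in all 20 settings, with log2 fold changes of 2.67 to 3.28, 3.16 to 3.75, 1.502 to 2.16 and 1.01 to 1.63. With the median of all genes set to 0, *Ptch1* (0.81), *Cdon* (0.94) and *Smo* (0.75) were not called. This left 4 of the 9 genes higher, beside 8.0% of all genes. *Rhebl1* turned to -0.027. Then 1207 of all genes were lower, 3 receptors, 2 targets and 2 transduction genes higher, 1 transduction gene lower, 0 cilium genes higher, and 7 other pathway genes higher and 2 lower. With library size alone *Gli3* was called (1.23), 140 of all genes and 0 other pathway genes were lower, and 2 cilium genes were higher and 0 lower. *Gli3* was also called with DESeq2 (1.02) and with the filter of edgeR (1.02). With the mouse as a replicate block *Smo* (0.99) was not called, and 1 transduction gene, 3 targets and 7 other pathway genes were higher. In within-mouse pairing the ratios with *Gli1* were 2.45 (*Ptch1*), 2.77 (*Hhip*), 1.93 (*Gli2*) and 2.72 (*Gli3*), each at an exact p of 0.0625, and *Cdon* to *Boc* turned to 0.017. Beside these and the named genes given with the block in the text, it changed no other call of a named gene. Without spindle 10, 12 and 13, *Hhip* turned to -0.60, *Ihh* to -0.18, *Gli3* was called (1.24), and 1576 of all genes, 1 ligand release gene, 0 cilium genes and 8 other pathway genes were higher. Without spindle 16 and muscle 12 *Gli3* was called (1.22). With no minimum fold change 15.8% of all genes were higher and 15.0% (3349) lower. Then 7 transduction genes were higher and 5 lower, and 1 target was lower. Of the cilium genes 3 were higher and 2 lower. Of the 55 pathway genes other than the 9, 20 were higher and 8 lower.

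Leaving out each library in turn gave 6 to 8 of the 9 genes higher, beside 9.5% to 12.1% of all genes. It gave *Smo* 0.95 to 1.14, *Gli3* 0.69 to 1.14, 3 to 7 targets and 2 to 5 transduction genes higher, and a difference of *Gli2* to *Gli3* of 0.74 to 1.26, with exact permutation p under 0.05 without spindle 9 (0.0286) or muscle 10 (0.0318). *Cdon* to *Boc* ranged from -0.32 to 0.017 and turned without muscle 11 (0.017). *Ptch1* to *Smo* ranged from -0.068 to 0.20 and turned without spindle 13 (-0.068) and muscle 12 (-0.02), and *Ihh* ranged from -0.31 (without spindle 12) to 0.76. The causes were not tested. *Hhip*, *Ihh*, *Disp2*, *Foxc2* and *Foxl1* rest on 63 reads or fewer in each tissue.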
